A study of Mus musculus with 4 samples.

Results

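Cks2 is one of the 2 mouse CKS genes, and its partners are its paralog Cks1b, the kinase genes Cdk1 and Cdk2 and the A- and B-type cyclin genes Ccna1, Ccna2, Ccnb1, Ccnb2 and Ccnb3. These 9 genes were taken by symbol from the 23420 gene symbols of the deposited table. Cks2 was chosen by its rise in TPM from Ctrl to AZ20 in these same libraries, so that rise is given as a description, without a test. The other 8 genes were chosen as its partners, and their values ask whether the rise was shared.

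CKS proteins are small adaptors that bind cyclin-dependent kinases and help them act on substrates that already carry phosphates. CDK1 with a B-type cyclin drives entry into the divisions, CDK2 acts at telomeres and recombination sites of the meiotic prophase, and CKS1B is also a cofactor of the SCF-SKP2 ubiquitin ligase. Cyclin A1 is the A-type cyclin of male meiosis, whereas cyclin A2 is used by mitotic cells. In the mouse, males without Cks2, Cdk2 or Ccna1 are sterile with meiotic failure.

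RNA-seq was performed on pachytene spermatocytes from wild-type (WT) C57BL/6 mice of 23 weeks of age, which were isolated by FACS with a DNA dye and cultured for 24 h. The 2 control libraries (Ctrl) received DMSO and the 2 treated libraries (AZ20) received AZ20 at 10 μM, which blocks ATR, a kinase of the DNA damage response. By the methods, both conditions were set up from the same animal, so libraries of the same number form a pair, and each library was made from 15000 cells. The sorted fraction was enriched for pachytene cells rather than pure, and cells in culture lack the support of Sertoli cells.

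The libraries held about 13617490 to 19749564 reads on genes. These reads were worked out from the TPM values (a level per transcript length, scaled to the same total in every library). Of the 10 pachytene markers, Ldhc (5216 to 6178 TPM), Sycp3 (2061 to 2924 TPM) and Hormad1 (951 to 1369 TPM) were highest. Spag6, Sycp1, Piwil1 and Pgk2 stood at 73.2 to 504 TPM. Mlh3 and Pou5f2 stood at 4.23 to 13.1 TPM, and Hist1h1t at 0 to 1.52 TPM. By the methods, the purity of the sorted cells was checked by staining for SYCP3, γH2AX and H1T. The summed level of the 10 round spermatid markers was 379 and 158 TPM in Ctrl and 806 and 264 TPM in AZ20. It was thus higher with AZ20 in both pairs, and it also differed between libraries of a group. The part of this difference in the changes of Cks2 and its partners was not tested. The 12 spermatogonia markers summed to 46.2 and 58.1 TPM in Ctrl and 58.6 and 82.1 TPM in AZ20, with Stra8, Dmrt1 and Sohlh1 at 0 reads in every library. The defining Sertoli cell genes Sox9, Wt1 and Fshr and the Leydig cell genes Cyp17a1, Cyp11a1 and Insl3 had 0 reads in every library, and the summed markers of Sertoli cells, Leydig cells, macrophages and peritubular myoid cells were at most 4.60 TPM per list.

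The promoters of the CKS genes and of Cdk1 are shown because these are the pair of paralogs that parted and the kinase with the larger change. Each line holds the 250 bases before the RefSeq transcript start (GRCm38.p6), read 5′ to 3′ on the strand of the gene. Capitals mark CCAAT boxes, which are bound by NF-Y, and CHR elements (TTTGAA or TTCGAA), which are bound by the DREAM and MuvB complexes, in either orientation. The Cks2 bases lie at chr13:51644982-51645231 on the plus strand, those of Cks1b at chr3:89418292-89418541 on the minus strand, and those of Cdk1 at chr10:69352913-69353162 on the minus strand.
Cks2: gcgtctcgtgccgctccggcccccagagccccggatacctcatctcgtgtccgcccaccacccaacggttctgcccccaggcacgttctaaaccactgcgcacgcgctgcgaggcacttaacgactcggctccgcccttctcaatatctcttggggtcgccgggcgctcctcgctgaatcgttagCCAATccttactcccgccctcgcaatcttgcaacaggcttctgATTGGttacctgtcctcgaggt
Cks1b: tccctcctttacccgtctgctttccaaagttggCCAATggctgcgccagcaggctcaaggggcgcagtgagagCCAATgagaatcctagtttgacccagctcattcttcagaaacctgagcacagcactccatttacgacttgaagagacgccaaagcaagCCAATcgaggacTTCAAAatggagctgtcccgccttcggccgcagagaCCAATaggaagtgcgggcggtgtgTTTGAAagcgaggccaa
Cdk1: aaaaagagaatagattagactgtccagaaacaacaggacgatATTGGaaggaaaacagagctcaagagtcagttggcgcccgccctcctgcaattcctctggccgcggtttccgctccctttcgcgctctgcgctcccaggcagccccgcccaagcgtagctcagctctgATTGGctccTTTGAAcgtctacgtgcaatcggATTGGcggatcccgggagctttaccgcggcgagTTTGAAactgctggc

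Windows of 300 bases, which add 50 bases after the start, were present for 8 of the 9 genes. The window of Cks2 held 4 CCAAT boxes, 2 of them after the start, and 0 CHR elements. That of Cks1b also held 4 CCAAT boxes, together with 2 CHR elements, and that of Cdk1 held 3 and 2. Of the 8 windows, 7 held a CCAAT box and 4 (Cks1b, Cks2, Cdk1 and Ccnb2) held 3 or more, compared with 37.4% and 3.37% of the 32851 mouse windows. A CHR element was found for Cks1b, Cdk1 and Ccnb2, and in 19.2% of all windows. Short MYB motifs (AACGG or AACTG) were found in 5 of the 8 windows and in 55.1% of all windows, with 6 in that of Ccnb3, and E2F motifs (GCGGGAA or GCGCGAA) in those of Cdk1, Cdk2 and Ccnb3 and in 6.0% of all windows. All motifs were searched on both strands, and in Cdk1 and in Cdk2 1 pair of matches overlapped. These are matches of letters, and binding was not measured.

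**Figure D1:**
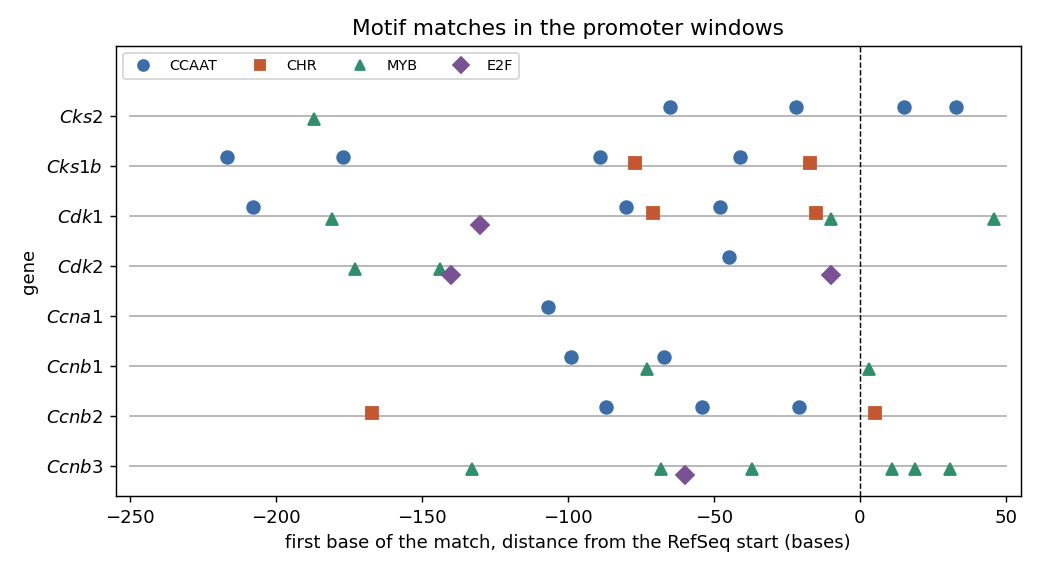
Motif matches in the windows from 250 bases before to 50 bases after the RefSeq start of 8 genes (x axis: distance of the first base from the start in bases, y axis: gene). Cks2 has 4 CCAAT boxes and no CHR element, while Cks1b, Cdk1 and Ccnb2 have both kinds. Cdk2, Ccna1 and Ccnb1 also have CCAAT boxes without a CHR element, and Ccnb3 has neither.

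In control spermatocytes the CKS transcripts were far more abundant than those of the kinases. Cks1b, which lies on chromosome 3 from 89415472 to 89418383 (GRCm38, minus strand), had the highest level of the 9 genes, at 852 ± 54.0 TPM (SD, n = 2). Cks2 followed at 430 ± 30.8 TPM (SD, n = 2) and Ccnb2 at 365 ± 93.7 TPM (SD, n = 2), and the library values of these 2 genes overlapped. Cdk2 stood at 78.3 ± 1.63 TPM (SD, n = 2) and Cdk1 at 71.5 ± 21.4 TPM (SD, n = 2), again with overlapping libraries. Ccnb1 (30.0 ± 6.48 TPM, SD, n = 2) and Ccna1 (16.1 ± 1.81 TPM, SD, n = 2) were lower. Ccna2 and Ccnb3 lay below 1 TPM in both Ctrl libraries. In the AZ20 libraries Cks2 (1005 ± 48.6 TPM, SD, n = 2) and Cks1b (866 ± 223 TPM, SD, n = 2) overlapped, and so did Cdk1 and Cdk2, while Ccnb2, the kinases, Ccnb1 and Ccna1 followed in that order.

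**Figure D2:**
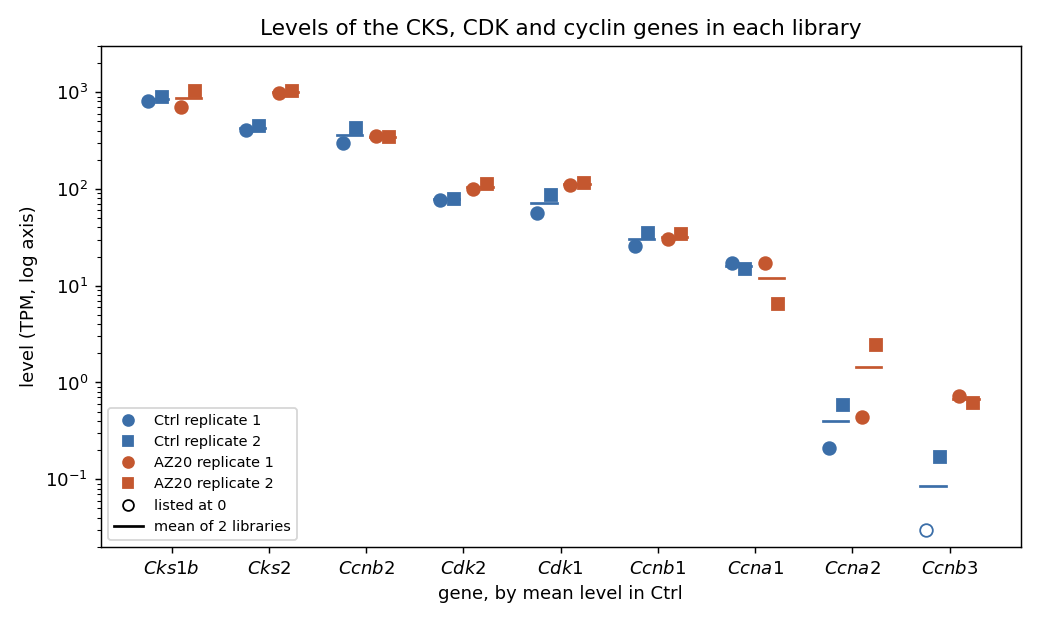
Level of each gene in each library (y axis: TPM on a log axis, x axis: genes by mean level in Ctrl, bars: means of 2 libraries). Cks2 lies at 408 and 452 TPM in Ctrl and at 970 and 1039 TPM in AZ20, and the open symbol drawn near the bottom is Ccnb3 in Ctrl replicate 1, listed at 0.

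The Cks2 transcript was 2.34-fold higher in AZ20 than in Ctrl. Cks2 lies on chromosome 13 from 51645232 to 51650660 (plus strand). It had 408 and 452 TPM in the Ctrl libraries, from 2858 and 3616 reads, and 970 and 1039 TPM in the AZ20 libraries, from 9791 and 9463 reads. Both AZ20 libraries were above both Ctrl libraries, and the pairs gave ratios of 2.38 and 2.30. On the scale of log2(TPM + 1) the change was 1.22, which ranked 69 of 9930 autosomal genes tested. Among all genes tested, X-linked ones included, it ranked 363. That rank depended on the scale, at 698 and 758 with pseudocounts of 0.1 and 0.01, 722 with voom on reads and 259 with quantile normalization. Cks2 was chosen by its rise, so these ranks are descriptions and not tests. By level, Cks2 ranked 493 of all symbols in Ctrl and 198 in AZ20.

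Its paralog showed no such rise. Cks1b had 814 and 890 TPM in Ctrl and 708 and 1023 TPM in AZ20, so the AZ20 libraries lay on either side of the Ctrl libraries. The mean change of log2(TPM + 1) was 0.00027 (standard error 0.20, limma adjusted p = 1.0), with a 95% interval from -0.46 to 0.46. The pairs went opposite ways, at -0.20 and 0.20. As a result, the ratio of Cks2 to Cks1b on the TPM scale went from 0.502 and 0.507 for Ctrl to 1.37 and 1.02 for AZ20. Cks2 made up 33.4% and 33.7% of the summed CKS transcripts in Ctrl and 57.8% and 50.4% in AZ20. The sum of both genes was 1222 and 1342 TPM in Ctrl and 1679 and 2062 TPM in AZ20. A retrogene, Cks1brt, and pseudogenes of Ccnb1 and Ccnb2 are annotated elsewhere in the genome, and reads without a unique alignment had been left out of the counts, so levels of these genes are uncertain to that extent.

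**Figure D3:**
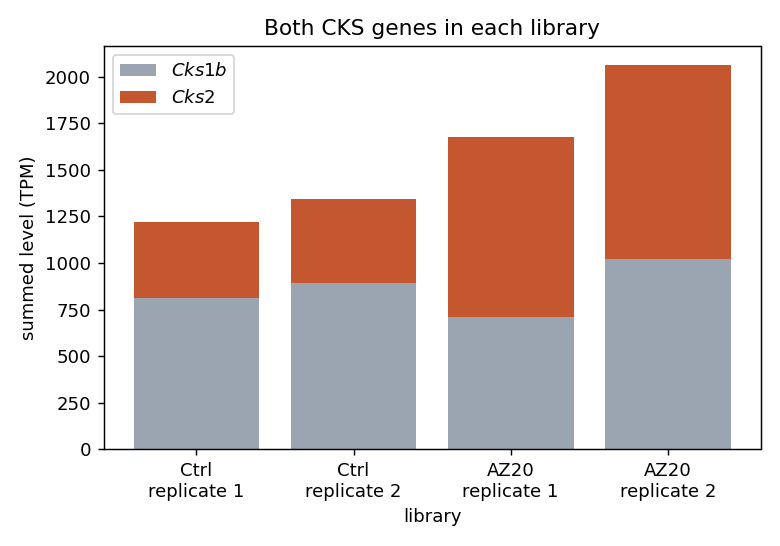
Summed TPM of Cks1b and Cks2 in each library (bars start at 0). The Cks2 part is 408 and 452 TPM in Ctrl and 970 and 1039 TPM in AZ20, while the Cks1b part ranges from 708 to 1023 TPM with the AZ20 libraries on either side of Ctrl.

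Of the 8 partners, 7 had a mean above 1 TPM in a group and were tested, and 0 were called higher or lower with AZ20. A call needed a change of at least 2-fold in log2(TPM + 1) and a Benjamini-Hochberg adjusted p under 0.05 in limma over all 10316 genes tested, of which 2.28% were called higher and 0.0485% lower. Among the 9930 autosomal genes, to which the 7 tested partners belong, 0.101% were called higher and 0.0504% lower. At an unadjusted p under 0.05, 2 of the 7 partners were higher (Cdk1 and Cdk2) and 0 were lower, against 8.03% of all genes tested and 5.17% of the autosomal ones that were higher, and 1.13% and 1.18% that were lower. With the replicate block, median-ratio scaling or quantile normalization 1 partner (Cdk1) was higher at this level, and without the intensity trend 0 were. Without an expression filter, 3 of the 8 partners then tested were higher (Cdk1, Cdk2 and Ccnb3). Voom on reads with the replicate block gave 2 (Cdk1 and Ccna2). The median change of the 7 partners was 0.11, beside 0.07 over all genes tested. The 95% intervals of 5 partners (Cks1b, Cdk2, Ccna1, Ccnb1 and Ccnb2) lay below a 2-fold rise, while those of Cdk1 and Ccna2 reached past it. With 2 libraries against 2, an exact permutation test of a single gene cannot give a two-sided p below 0.333.

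Cdk1, whose product binds CKS proteins, was higher in both AZ20 libraries. Cdk1 (chromosome 10 from 69335146 to 69352938, minus strand) had 56.4 and 86.7 TPM in Ctrl and 110 and 115 TPM in AZ20. The groups did not overlap, but the Ctrl libraries differed from each other by more than Ctrl replicate 2 differed from AZ20 replicate 1. The change of log2(TPM + 1) was 0.68 (standard error 0.24, limma adjusted p = 0.407) with a 95% interval from 0.12 to 1.24, and 6.05% of autosomal genes had a change as large or larger. It was 0.95 in the first pair and 0.41 in the second, and 0.37 without Ctrl replicate 1. With the replicate number as a block the gene was again not called (limma adjusted p = 0.0882). The ratio of Cks2 to Cdk1 transcripts was 7.24 and 5.21 in Ctrl and 8.83 and 9.02 in AZ20, so Cks2 outnumbered Cdk1 in every library.

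Cdk2, the kinase needed for telomere attachment in meiosis, had 77.2 and 79.5 TPM in Ctrl and 99.0 and 112 TPM in AZ20. Both AZ20 libraries were above both Ctrl libraries. The change of log2(TPM + 1) was 0.42 (standard error 0.17, limma adjusted p = 0.536) with a 95% interval from 0.0077 to 0.83, and the pairs gave 0.35 and 0.48. With the replicate block the interval ran from -0.033 to 0.87. The sum of Cdk1 and Cdk2 was 134 and 166 TPM in Ctrl and 209 and 227 TPM in AZ20. Cdk1, Cdk2 and the X-linked Ccnb3 were the 3 partners whose AZ20 libraries both exceeded both Ctrl libraries, and this pattern was met by 26.4% of all genes tested and by 24.0% of the autosomal ones. The reverse pattern was met by 0 partners and by 11.7% of all genes tested.

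Ccnb1 and Ccnb2, the B-type cyclins that activate CDK1 at the divisions, differed by less than the spread between libraries. Ccnb2 had 298 and 431 TPM in Ctrl, and both AZ20 libraries (349 and 346 TPM) fell between these values. Its change of log2(TPM + 1) was -0.05 (standard error 0.20, limma adjusted p = 0.975), with pairs at 0.22 and -0.32. Ccnb1 had 25.5 and 34.6 TPM in Ctrl and 30.3 and 34.1 TPM in AZ20, which overlapped, with a change of 0.11 (standard error 0.23, limma adjusted p = 0.939). Ccnb2 exceeded Ccnb1 in every library, by 11.7- and 12.4-fold in Ctrl and by 11.5- and 10.1-fold in AZ20. The ratio of Cks2 to Ccnb2 was 1.37 and 1.05 in Ctrl and 2.78 and 3.0 in AZ20.

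**Figure D4:**
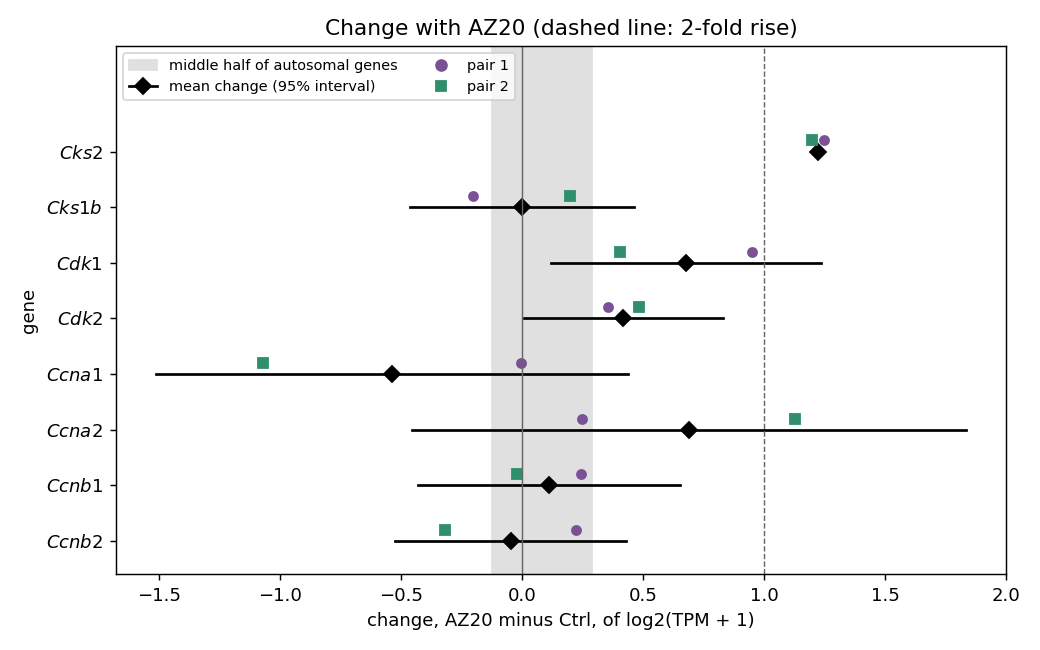
Change of log2(TPM + 1) from Ctrl to AZ20 for 8 genes (diamonds: means, lines: 95% intervals from limma, given for the partners but not for Cks2, circles and squares: replicate pairs, grey band: quartiles of autosomal changes, from -0.12 to 0.29). Cks2 lies at 1.22 with both pairs beside it, Cdk1 at 0.68 and Cdk2 at 0.42, while the pairs of Cks1b and Ccnb2 lie on opposite sides of 0.

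By their ratio, the A-type cyclins varied most between the AZ20 libraries. Ccna1, the cyclin A of male meiosis, had 17.3 and 14.8 TPM in Ctrl and 17.3 and 6.52 TPM in AZ20. AZ20 replicate 2 stood below the other 3 libraries, so that the change was -0.0029 in the first pair and -1.07 in the second. The mean change of log2(TPM + 1) was -0.54 (standard error 0.41, limma adjusted p = 0.800), and it was 0.11 without AZ20 replicate 2.

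Ccna2, which is used by mitotic cells, went the other way in the same library. Its Ctrl level of 0.212 and 0.586 TPM rested on 6 and 19 reads, and its AZ20 level of 0.440 and 2.47 TPM on 18 and 91 reads. The exact 95% Poisson interval of AZ20 replicate 2, from 1.99 to 3.03 TPM, lay above those of the other 3 libraries, which reached at most 0.915 TPM. These intervals cover counting error only. On the TPM scale Ccna2 rose in both pairs, by 2.08- and 4.21-fold, beside 2.38- and 2.30-fold for Cks2. It was 1 of 4 partners higher in both pairs, with Cdk1, Cdk2 and Ccnb3. The Poisson intervals of its first pair overlapped, and Ctrl replicate 2 stood above AZ20 replicate 1. The mean change of log2(TPM + 1), which understates changes of low genes, was 0.69 (standard error 0.48, limma adjusted p = 0.775). Smaller pseudocounts gave larger values (1.35 at 0.1, 1.54 at 0.01). The change ranged from 0.23 with quantile normalization to 1.71 with voom on reads and the replicate block. Leaving out a library gave 0.49 to 1.32. Without AZ20 replicate 2 the gene fell below the mean of 1 TPM and was not tested, and it was not called in any fit that tested it. The ratio of Ccna1 to Ccna2 was 82.0 and 25.2 in Ctrl and 39.3 and 2.64 in AZ20. AZ20 replicate 2 also had the highest summed level of spermatogonia markers (82.1 TPM), of which 60.5 TPM came from Id4. Sohlh2 (6.56 TPM) and Sall4 (0.180 TPM) were also highest there. Uchl1 was highest in Ctrl replicate 2, and Gfra1 and Zbtb16 were highest in AZ20 replicate 1. Kit, Nanos3 and Lin28a had 0 reads in AZ20 replicate 2. The part of other cells in the Ccna2 value was not tested, and in bulk RNA fewer cells of a type and less RNA per cell cannot be told apart.

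Ccnb3, a B-type cyclin of early meiotic prophase, is the X-linked gene of the family (X chromosome from 6979652 to 7041619, minus strand). Its reads numbered 0 and 9 for Ctrl against 48 and 37 for AZ20. Both AZ20 libraries (0.725 and 0.619 TPM) were above both Ctrl libraries (0 and 0.171 TPM), and their exact Poisson intervals (0.534 to 0.961 TPM and 0.436 to 0.853 TPM) did not meet those of Ctrl (up to 0.0803 TPM, and 0.0783 to 0.325 TPM). Such intervals cover counting error only and not the spread between libraries. In the second pair the ratio was 3.61. In the first pair the AZ20 level was 11.1-fold the 0.0653 TPM that 3 reads would give in Ctrl replicate 1, which had 0 reads. The gene stayed under the mean of 1 TPM and was not among the genes tested. When every gene with a read was tested, its change was 0.63 (limma adjusted p = 0.310). Of the 341 X-linked genes tested, 63.3% were called higher, 88.9% were higher at an unadjusted p under 0.05 and 91.2% had both AZ20 libraries above both Ctrl libraries.

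The other genes of the pathway were taken as 6 lists with 134 genes, 110 of which were tested. Of these, 0 were called higher and 0 lower by limma, with 7 higher (6.36%) and 1 lower (0.909%) at an unadjusted p under 0.05, near the shares of the autosomal genes tested (5.17% and 1.18%). Their median change of log2(TPM + 1) was 0.06, close to that of all genes (0.07), and 2 genes were past a 2-fold rise (Ccng2 and Cdk16) and 0 past a 2-fold fall.

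Among the 15 other cyclins tested the median change was 0.22. Ccng2, an atypical cyclin linked to cell cycle arrest, had 2.90 and 4.90 TPM in Ctrl and 6.81 and 14.8 TPM in AZ20, a change of 1.21 (standard error 0.40, limma adjusted p = 0.377). It was called higher with the replicate block (limma adjusted p = 0.00373). Ccne1, a G1/S cyclin, rested on 0 and 6 reads for Ctrl against 29 and 29 for AZ20, with a change of 0.88 (limma adjusted p = 0.506). The lowest changes were those of Ccnh, the cyclin of the CDK-activating kinase, at -0.27 and of Ccnt1 at -0.08.

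Among the 14 other CDK genes the median change was -0.0028. Cdk16, an X-linked kinase gene needed for spermatid differentiation, rested on 15 and 0 reads for Ctrl against 147 and 68 for AZ20, with a change of 1.49 (standard error 0.39, limma adjusted p = 0.204). It was called higher with the replicate block (limma adjusted p = 0.00867). The same block called Prm1, a round spermatid marker (limma adjusted p = 0.000766), which had 83.0 and 39.2 TPM in Ctrl and 210 and 73.9 TPM in AZ20, and its part in the results for Ccng2 and Cdk16 was not tested. Cdk4 followed at 0.44, and the lowest were Cdk14 at -0.60 and Cdk6 at -0.17.

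The direct regulators of CDK1 and CDK2 had a median change of 0.08 over 13 genes. Wee1, which encodes an inhibitory kinase of CDK1, had 7.74 and 6.59 TPM in Ctrl and 8.83 and 12.7 TPM in AZ20 (change 0.51, limma adjusted p = 0.677), and Pkmyt1, its relative, had a change of -0.23. Hspa2, a spermatocyte chaperone needed for the assembly of CDK1 with cyclin B, had 1390 and 995 TPM in Ctrl and 883 and 1118 TPM in AZ20, which overlapped (change -0.24). The inhibitor gene Cdkn2b had the highest change of the list (0.61) on 36 reads or fewer in each library.

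Genes for the degradation of cyclins and CDK inhibitors had a median change of 0.06 over 21 tested. Anapc2 (0.63) and Anapc7 (0.53), which encode subunits of the anaphase-promoting complex, were highest. Fzr1, its activator outside mitosis, and Ube2c, its E2 enzyme, were lowest at -0.46 and -0.36.

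The 31 G2/M genes, all of which were tested, had a median change of 0.05. Kif20a (0.60) and Pttg1 (0.53), the gene of securin, were highest, and Pttg1 had 343 and 273 TPM in Ctrl and 461 and 422 TPM in AZ20 (limma adjusted p = 0.361). Hmmr (-0.81) and Nuf2 (-0.42), which encode spindle and kinetochore proteins, were lowest.

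The 16 MYB, E2F, DREAM and NF-Y factors tested had a median change of 0.09. E2f4, an E2F of the DREAM complex, had 8.60 and 11.0 TPM in Ctrl and 15.9 and 20.2 TPM in AZ20, with groups that did not overlap (change 0.82, limma adjusted p = 0.313). Nfya, the gene of the subunit of NF-Y that recognizes CCAAT boxes, had a change of 0.68, while Nfyc (-0.29) and Rb1 (-0.08) were lowest.

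**Figure D5:**
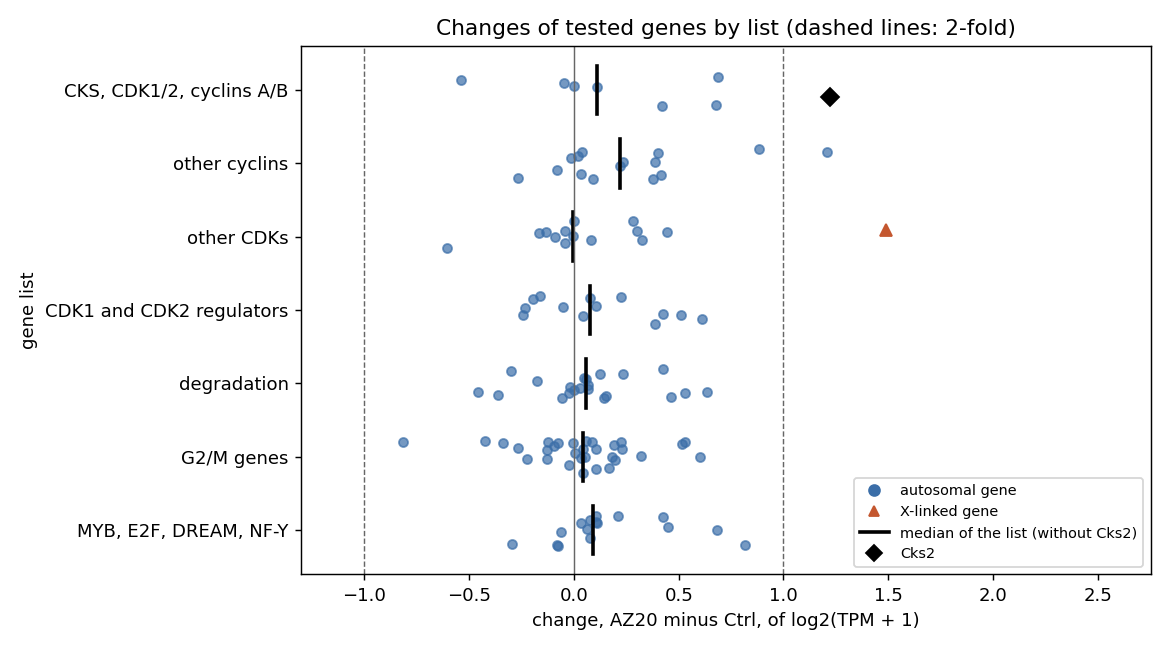
Change of log2(TPM + 1) of every tested gene by list (circles: autosomal genes, triangle: the X-linked gene Cdk16, diamond: Cks2, bars: medians without Cks2). Medians lie between -0.0028 and 0.22, and Cks2, Ccng2 and Cdk16 lie past the line of a 2-fold rise.

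Autosomal genes with a mean above 10 TPM in both groups were ranked by how close their profile over the 4 libraries came to that of Cks2 (Euclidean distance of log2(TPM + 1) after subtracting the mean of each gene, 4879 genes compared). The nearest were Snhg1 (distance 0.21), Snhg5 (0.26), Snhg10 (0.27), 2900076A07Rik (0.28) and 2410006H16Rik (0.30). The Snhg genes are hosts of small nucleolar RNAs. Snhg1 had 96.4 and 106 TPM in Ctrl and 272 and 272 TPM in AZ20, Snhg5 had 73.8 and 64.5 TPM in Ctrl and 145 and 166 TPM in AZ20, and 2410006H16Rik had 283 and 262 TPM in Ctrl and 520 and 557 TPM in AZ20. These genes were picked for their likeness over the same libraries, and 0 of them belong to the cell cycle lists above. The lists hold only 110 tested genes beside the 4879 compared, so this says little about the lists.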

How the data were processed

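The authors trimmed paired reads of 150 bp with Trimmomatic 0.39, aligned them to GRCm38 (mm10) with STAR 2.5.4b keeping unique alignments, counted them on the refGene annotation with featureCounts 2.0.1, and deposited TPM values that they had computed from the counts, with 1 column per library. The labels give a culture temperature of 34 °C and the methods 32 °C.

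The members, lists and tests were chosen with earlier results of these data known. The 92 blank lines were left out. A mean above 1 TPM in either group was required for the test, which used limma 3.58.1 (R 4.3.3) on log2(TPM + 1) with an intensity trend, a scale on which changes of low genes are understated. The limma step was also run on simulated counts without pairing, as a self-test, and no value above rests on it. Since a gene has the same length in all libraries, reads were recovered from the TPM as whole numbers (within 0.002) for 100.0% of 16857 genes. Reads that share a whole factor in all libraries can come out too low, so totals are approximate.

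Promoter windows came from RefSeq, positions from GENCODE M21. The pairing rests on the methods. Deviations of same-numbered libraries from the group means correlated at 0.23 across genes. The reported fit had no replicate term, so its standard errors, intervals and p-values take no account of the pairing. A replicate block was used in an alternative fit of the TPM and in another by voom on reads. Other alternatives changed the pseudocount (0.1 and 0.01), filter, trend or scaling, used voom on reads, or left out a library. Named genes were the 9 members, called genes of each list with its 2 highest and 2 lowest changes, and the 5 profiles nearest to Cks2. Levels, ratios and motif matches came from Python 3.11.15 with scipy 1.17.1, numpy 2.4.6 and pandas 2.3.3.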

Additional observations from a re-analysis of the deposited data

How the results depend on the processing

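Of the partners tested, 0 were called in each of the 14 alternatives, which tested 6 to 8 partners (Ccnb3 only without a filter, and Ccna2 neither at a mean above 5 TPM nor without AZ20 replicate 2). The lowest adjusted p was 0.0770 (Cdk1, voom with the replicate block). The replicate block changed the call of Ccng2, of Cdk16 and of the spermatid marker Prm1 (change 1.11, limma adjusted p = 0.000766) among the genes of the lists, and of 0 members. The change of Cks2 ran from 1.14 to 1.23, and from 1.15 to 1.30 when each library was left out. The change of Cks1b, near 0, was -0.084 with median-ratio scaling, -0.025 with voom and -0.018 with voom and the block. Leaving out each library gave -0.26 to 0.27 for Cks1b, 0.37 to 0.98 for Cdk1, -1.18 to 0.11 for Ccna1, 0.49 to 1.32 for Ccna2, -0.10 to 0.33 for Ccnb1 and -0.31 to 0.22 for Ccnb2, so the signs of Cks1b, Ccna1, Ccnb1 and Ccnb2 changed with the library left out, and the cause was not tested. Over all genes, 235 were called higher and 5 lower, which became 424 and 23 with the replicate block, 351 and 6 with voom and the block, and 1 lower with voom or without an expression filter. Without an AZ20 library 0 genes were called and without a Ctrl library 158 to 184 were called higher and 1 lower, so these fits, in which the lone library is assumed to vary like the other group, say little about stability. Median-ratio scaling and quantile normalization moved the median of all genes from 0.07 to -0.00 and -0.07. Depth limits Ccna2 and Ccnb3, which had 91 reads or fewer in each library.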
